A study of Mus musculus with 24 samples.

Results

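The genes described here are 35 genes of sterol and fatty acid synthesis and of the SREBP system that controls them, chosen by name from the 35976 genes in the count tables. They fall into 6 regulators, 20 genes of the sterol branch and 9 genes of the fatty acid branch, and all 35 passed the filter on low counts in each fit. RNA sequencing covered 24 libraries of CT26, a mouse colon carcinoma line that grows in BALB/c mice, from a Sun1 knockout line and from wild-type control lines. Sun1 encodes an inner nuclear membrane protein that links the nucleus to the cytoskeleton.

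Cells grown in RPMI with fetal bovine serum gave 1 library of the knockout line, 1 of control line 1 and 1 of control line 2. Subcutaneous tumors taken from BALB/c mice 14 days after injection gave 7 knockout libraries and 8 libraries of control line 1. Tumor cells isolated from such tumors with a kit, called purified cells below, gave 2 libraries of each of the 3 lines. The labels name a single knockout line and do not say how Sun1 was disrupted or how old the mice were, and loss of Sun1 cannot be told apart from other properties of that line. They also do not say whether replicates came from separate animals, so p-values measure the spread between these samples, which may be technical.

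SREBP proteins are transcription factors made as precursors in the membrane of the endoplasmic reticulum. When membrane sterol is low, the escort protein SCAP carries them to the Golgi, where site-1 protease (Mbtps1) makes the first cut that frees the active part. When sterol is high, the INSIG proteins hold SCAP back. SREBP-2, the product of Srebf2, acts mainly on genes of cholesterol synthesis, and the SREBP-1 forms from Srebf1 act mainly on genes of fatty acid synthesis and desaturation. Insig1 is itself a target, which closes a feedback loop.

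Depth was 14140800 to 24651300 expected counts per library. Sun1 itself measured 33.7 CPM (counts scaled to library size, with TMM factors) in the cultured knockout library and 110 and 122 CPM in the cultured controls. It ranged from 50.5 to 64.8 CPM in knockout tumors against 169 to 192 CPM in control tumors, and from 50.9 to 55.5 CPM in purified knockout cells against 165 to 214 CPM in purified controls. Among epithelial markers, Epcam and Cdh1 had no counts in the 3 cultured libraries, and Epcam had none in purified cells. Krt18 was present in the control lines (69.5 and 119 CPM in culture) and nearly absent from the knockout line (0.59 CPM in culture). The 4 leukocyte markers Ptprc, Cd53, Coro1a and Laptm5 summed to 1.38 to 7.04 CPM in purified cells, 2.27 to 3.18 CPM in culture and 238 to 674 CPM in tumors.

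Promoter sequences from RefSeq (GRCm38.p6), from 250 bases before to 50 bases after a gene's start, were found for 28 of the 35 genes. They were searched on both strands for the CCAAT box, for GGGCGG and for TCACNCCAC, a short form of the sterol regulatory element. Windows from 5 genes are shown as examples: Srebf2, the sterol enzymes Hmgcs1, Idi1 and Ebp, and the fatty acid synthase Fasn. Each window is given 5′ to 3′ on the gene's own strand and ends before the first transcribed base, and capitals mark the match. The first window holds the match to TCACNCCAC and the others hold the CCAAT box nearest to the start, which reads ATTGG because it lies on the opposite strand.
Hmgcs1, chr13:119690184-119690252, plus strand: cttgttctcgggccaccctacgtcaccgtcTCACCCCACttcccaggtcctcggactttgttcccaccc
Hmgcs1, chr13:119690276-119690340, plus strand: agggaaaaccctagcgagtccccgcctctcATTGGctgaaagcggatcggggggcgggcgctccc
Idi1, chr13:8885562-8885605, plus strand: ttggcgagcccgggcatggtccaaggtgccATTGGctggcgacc
Ebp, chrX:8193533-8193597, minus strand: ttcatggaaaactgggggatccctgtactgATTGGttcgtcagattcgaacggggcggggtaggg
Srebf2, chr15:82147104-82147168, plus strand: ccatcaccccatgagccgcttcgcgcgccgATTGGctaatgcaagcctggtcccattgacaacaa
Fasn, chr11:120824572-120824636, minus strand: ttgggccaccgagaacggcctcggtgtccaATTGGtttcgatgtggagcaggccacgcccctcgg

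The match to TCACNCCAC in Hmgcs1, whose enzyme makes HMG-CoA at the head of the mevalonate pathway, lay 128 bases upstream of the start. It was the only match among the 28 genes, and 1.44% of all 27025 genes with a promoter entry held this motif. Only exact matches to this pattern were counted, so other forms of the element were not looked for. CCAAT boxes were more common. Of the sterol branch genes with a promoter entry, 15 of 16 held a CCAAT box, as did 3 of 6 fatty acid branch genes (Acly, Acss2 and Fasn) and 4 of 6 regulators, against 41.1% of all genes with an entry. The Sp1 box GGGCGG, was held by 14 of 16 sterol genes, 3 of 6 fatty acid genes and 6 of 6 regulators, against 38.2% of all genes with an entry. Some genes have several promoter entries, which gives them more chances of a match.

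Levels per transcript length were compared with the authors' deposited TPM. In control tumors the highest medians were those of the desaturase Scd2 (242 TPM), farnesyl diphosphate synthase Fdps (153 TPM) and the desaturase Scd1 (135 TPM). The lowest were the sterol reductase Tm7sf2 (2.30 TPM), Hsd17b7 (3.61 TPM) and the acetyl-CoA synthetase Acss2 (3.94 TPM). Srebf2 and Srebf1 stood at similar medians, at 48.6 and 40.9 TPM. Scd1 and Scd2 are close paralogs whose shared reads are split by estimate, so their separate values are less certain than the others.

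In whole tumors, the comparison asks how these genes differ between tumors of the knockout line and of control line 1. At an edgeR adjusted p under 0.05, 23 of the 35 genes were lower in knockout tumors and 0 were higher. Of the 13752 genes tested, 19% were called lower and 18.1% higher. The 35 genes were chosen with earlier results of these data known, so such contrasts, here and below, are not independent tests. By role, 4 of 6 regulators, 13 of 20 sterol genes and 6 of 9 fatty acid genes fell. The median log2 fold change was -0.26 for the regulators, -0.38 for the sterol branch and -0.30 for the fatty acid branch, against 0.01 for all genes tested.

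Srebf2 fell most among the 35 genes. It ranged from 90.9 to 126 CPM in knockout tumors (median 109, n = 7) and from 164 to 226 CPM in control tumors (median 196, n = 8), with no overlap. The difference was 1.75-fold, or -0.81 ± 0.08 on the log2 scale, where the error is an SE (edgeR adjusted p = 2.23e-07). Srebf1 ranged from 102 to 143 CPM in knockout and from 124 to 176 CPM in control tumors, and fell by 0.25 ± 0.08 on the log2 scale (edgeR adjusted p = 0.0164) with overlapping ranges. Among the INSIG genes, Insig2 fell by 0.35 ± 0.07 (edgeR adjusted p = 0.000738). Insig1, the sterol-responsive one, measured 50.1 to 92.5 CPM in knockout and 70.7 to 106 CPM in control tumors, and its log2 fold change of -0.14 ± 0.11 did not pass (edgeR adjusted p = 0.349). The protease gene Mbtps1 fell by 0.27, and the escort gene Scap had a value of -0.17 (edgeR adjusted p = 0.0765).

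Of the sterol branch, squalene epoxidase Sqle, which oxidises squalene to its epoxide, had the smallest p-value. It ranged from 70.8 to 93.1 CPM in knockout tumors (median 79.3) and from 110 to 183 CPM in control tumors (median 128), and the groups did not overlap. It was 1.60-fold lower, by -0.68 ± 0.09 (edgeR adjusted p = 1.44e-05). Early in the pathway, the acetyl-CoA acetyltransferase Acat2 fell by 0.65, Hmgcs1 by 0.47 and isopentenyl diphosphate isomerase Idi1 by 0.52. The steps between them, mevalonate kinase Mvk (-0.22), Pmvk (-0.20) and Mvd (-0.27), did not pass. Past squalene synthase Fdft1 (-0.42) and Sqle, lanosterol synthase Lss fell by 0.53, the demethylase Cyp51 by 0.29, Msmo1 by 0.42, Nsdhl by 0.56, Hsd17b7 by 0.49, the isomerase Ebp by 0.53 and Sc5d by 0.30. The sterol carrier gene Stard4 fell by 0.33. The last enzyme, Dhcr7 (-0.23), and Tm7sf2 (-0.28) did not pass, nor did Fdps (-0.30). Ggps1, which leads to geranylgeranyl lipids and away from sterols, measured 0.06 ± 0.06.

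In the fatty acid branch, Scd1 ranged from 320 to 400 CPM in knockout tumors (median 370) and from 450.5 to 629 CPM in control tumors (median 523), again without overlap. It fell by 0.55 ± 0.07 on the log2 scale, 1.46-fold (edgeR adjusted p = 5.58e-06). The desaturases Fads2 and Fads1 fell by 0.54 and 0.27, and Scd2, at 763 to 1009 CPM against 875 to 1333 CPM, by 0.24. Acetyl-CoA carboxylase Acaca fell by 0.32 and ATP citrate lyase Acly by 0.30. Fasn, which builds palmitate, ranged from 122 to 239 CPM in knockout and from 204 to 310 CPM in control tumors, and its value of -0.28 ± 0.13 did not pass (edgeR adjusted p = 0.115). The acetyl-CoA synthetase Acss2 (-0.31) and the elongase Elovl6 (0.15) did not pass either.

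Knockout tumor values lay wholly below control values for 1 regulator (Srebf2), 4 sterol genes (Acat2, Sqle, Hsd17b7 and Ebp) and 2 fatty acid genes (Scd1 and Fads2). This was true of 6.08% of all genes tested. Leukocyte markers moved with genotype, summing to 422 to 674 CPM in knockout and 238 to 443 CPM in control tumors, and in these bulk samples fewer tumor cells and less RNA per tumor cell cannot be told apart. Of the skeletal muscle markers Ckm, Acta1, Myh4 and Mylpf, 3 of 4 were called higher in knockout tumors. Their sum was 2.04 to 76.0 CPM in knockout and 1.01 to 9.55 CPM in control tumors, and their part in the result was not tested. With the mean log2 level of Ptprc and Pecam1 as a covariate, the calls fell to Srebf2 (-0.74) and Ebp (-0.88), while 19 of 20 sterol genes stayed below 0 at a median of -0.51. Both covariate genes separated the genotypes wholly. Ptprc ranged from 156 to 241 CPM in knockout and from 72.2 to 153 CPM in control tumors, and Pecam1 from 41.5 to 57.6 and from 28.7 to 40.7 CPM. The covariate thus overlaps with genotype itself, and the loss of calls does not measure the part of host cells. The share of all genes called with this covariate is not given here, so the loss is not read as particular to these genes. Control line 2 has no tumors here, and it lay below control line 1 in many of these genes in cells, as given below.

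**Figure D1:**
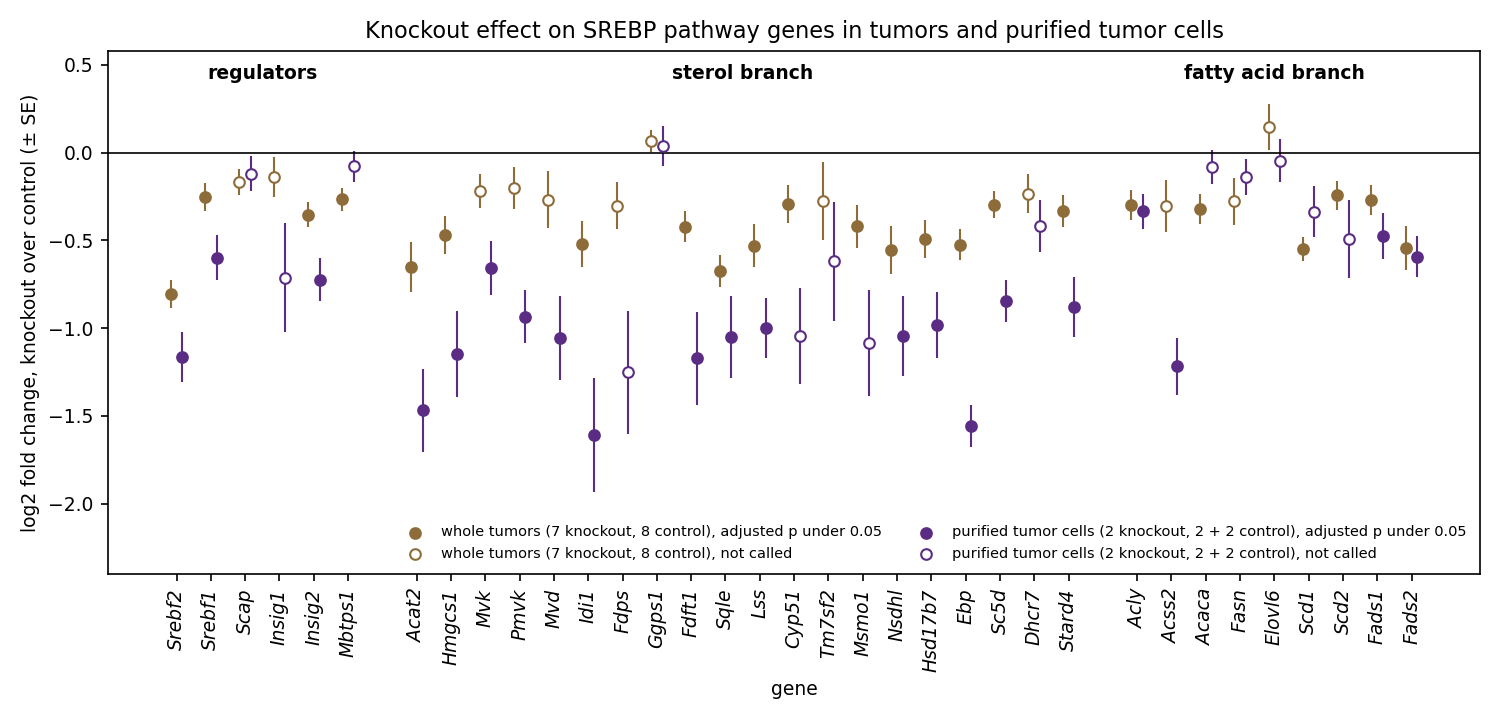
Log2 fold change of knockout over control (y axis, ± SE) for each of the 35 genes (x axis, by role) in whole tumors and in purified tumor cells, where control is the mean of both control lines; filled points passed the edgeR threshold. The sterol genes lie near -0.38 in tumors and near -1.05 in purified cells, while Ggps1 stays close to 0 in both and the fatty acid genes other than Acss2 lie between -0.59 and 0.15.

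In purified tumor cells the comparison asks whether the difference is present in the isolated cells, with the knockout line set against the mean of both control lines. Of the 35 genes 21 were lower and 0 higher (edgeR adjusted p under 0.05), where 10.1% of the 12476 genes tested were called lower and 10.5% higher. Of 20 sterol genes 14 fell, with a median log2 fold change of -1.05, while 4 of 9 fatty acid genes fell, with a median of -0.34. Of the regulators 3 of 6 fell, with a median of -0.66, and the median of all genes tested was 0.00.

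Srebf2 measured 168 and 115 CPM in the knockout libraries, 339 and 373 CPM in control line 1, and 268 and 306 CPM in control line 2. Both knockout values were below all 4 control values, a 2.24-fold difference (-1.17 ± 0.14, edgeR adjusted p = 0.000342). Insig2 fell by 0.72 and Srebf1 by 0.60, and neither overlapped with a control line. Insig1 measured 82.8 and 42.2 CPM in knockout, 115 and 138 CPM in control line 1, and 92.1 and 75.3 CPM in control line 2, and -0.71 ± 0.31 did not pass (edgeR adjusted p = 0.193). Scap (-0.12) and Mbtps1 (-0.08) had values near 0.

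Ebp, which shifts a double bond late in cholesterol synthesis, had the smallest p-value of the sterol genes. It measured 18.1 and 18.0 CPM in knockout, 50.1 and 54.1 CPM in control line 1 and 59.7 and 49.7 CPM in control line 2. It was 2.94-fold lower (-1.56 ± 0.12, edgeR adjusted p = 1.89e-06), with close replicates and no overlap. Idi1 measured 39.1 and 19.1 CPM in knockout, 97.8 and 114 CPM in control line 1 and 82.4 and 68.3 CPM in control line 2. Its change was the largest, 3.05-fold (-1.61 ± 0.32, edgeR adjusted p = 0.0296), and its knockout replicates also lay far apart. Sqle measured 127 and 74.7 CPM in knockout, 208 and 252 CPM in control line 1 and 206 and 178 CPM in control line 2 (-1.05 ± 0.23, edgeR adjusted p = 0.0294).

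Other steps followed the same direction. Acat2 fell by 1.47, Fdft1 by 1.17, Hmgcs1 by 1.15, Mvd by 1.06, Nsdhl by 1.05, Lss by 1.00, Hsd17b7 by 0.98, Pmvk by 0.94, Stard4 by 0.88, Sc5d by 0.84 and Mvk by 0.66. Not passing were Fdps (-1.25), Msmo1 (-1.09) and Cyp51 (-1.04), whose edgeR adjusted p lay between 0.0579 and 0.0843, and also Tm7sf2 (-0.62) and Dhcr7 (-0.42). Ggps1 measured 24.4 and 26.2 CPM in knockout, 22.7 and 25.3 CPM in control line 1 and 26.3 and 24.9 CPM in control line 2, so that the 3 lines overlapped (0.04 ± 0.11).

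In the fatty acid branch Acss2, which makes acetyl-CoA from acetate for both branches, changed most. It measured 10.9 and 7.60 CPM in knockout, 25.7 and 29.3 CPM in control line 1 and 17.6 and 16.4 CPM in control line 2 (-1.22 ± 0.16, edgeR adjusted p = 0.000202). Fads2 fell by 0.59, Fads1 by 0.48 and Acly by 0.34. Fasn measured 436 and 392 CPM in knockout, 512 and 541 CPM in control line 1 and 356 and 442 CPM in control line 2, with knockout values between those of the control lines in part (-0.14 ± 0.10, edgeR adjusted p = 0.356). Scd1, at 414 and 357 CPM against 496 and 745 CPM in control line 1 and 381 and 391 CPM in control line 2, overlapped with control line 2 (-0.34, edgeR adjusted p = 0.130). Scd2, at 862 and 619 CPM against 856 and 1387 CPM in control line 1 and 948 and 1004 CPM in control line 2, was not called (-0.49). Acaca (-0.08) and Elovl6 (-0.05) were near 0.

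The control lines differed from each other, and so the result was also taken against each. Both comparisons share the knockout libraries. Against control line 1, 15 sterol, 5 fatty acid and 3 regulator genes were lower, where 10.1% of all genes tested were called lower. Against control line 2, 7 sterol genes (Acat2, Pmvk, Lss, Nsdhl, Ebp, Sc5d and Stard4), 2 fatty acid genes (Acss2 and Fads2) and 3 regulators (Srebf2, Srebf1 and Insig2) were lower, where 10.5% of all genes were. These counts depended on single libraries and on the fit. Against control line 1 the sterol count fell to 8 without control line 1 replicate 2 or without either replicate of control line 2. The fatty acid count was 1 without knockout replicate 2 or control line 1 replicate 2. Against control line 2 the sterol count was 3 without control line 2 replicate 1 and 17 without knockout replicate 1. It was 12 with no low count filter, and 11 with DESeq2 and with the replicate block. The sterol median was -1.20 against control line 1 and -0.87 against control line 2. Between the control lines, line 2 was lower than line 1 in 1 sterol gene (Hsd17b7, -1.16), in 5 fatty acid genes (Acss2, Acaca, Fasn, Elovl6 and Scd1, from -0.35 to -0.68) and in Mbtps1 (-0.41), where 9.01% of all genes tested were called lower. The 5 fatty acid calls fell to 1 without either replicate of control line 1, to 2 without control line 2 replicate 1 and to 3 without any 1 of the other purified libraries, and Mbtps1 was not called without either replicate of control line 1. Hmgcs1 (-1.02) and Mvd (-0.90) were also lower in control line 2 without passing (edgeR adjusted p = 0.0619 and 0.0526).

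With both control lines as 1 arm, 11 sterol genes and 1 fatty acid gene were called. The share of all genes called is not given for this fit or for fits with a library left out. Changes in these counts are therefore not read as particular to these genes. Knockout replicate 2 was lower than knockout replicate 1 in 18 of 20 sterol genes, 9 of 9 fatty acid genes and 6 of 6 regulators, and without it the sterol median was -0.70 with 12 genes called. Only 1 fatty acid gene, Acss2, and 1 regulator, Srebf2, were then called. The skeletal muscle markers were also highest in that library (a sum of 27.5 CPM, against 2.89 CPM in knockout replicate 1 and 1.15 to 1.74 CPM in purified controls), and their part in the result was not tested. The fibroblast markers Pdgfra, Dcn, Col3a1 and Dpt summed to 1032 and 1090 CPM in purified knockout cells, between 1898 and 2217 CPM in control line 1 and 581 and 690 CPM in control line 2. Most of the knockout sum was Col3a1 (949 and 904 CPM), which also measured 79.7 to 201 CPM in culture. Dcn lay between the control lines, at 76.3 CPM in both knockout libraries. Dpt was instead highest in knockout, at 12.7 and 19.6 CPM against 1.54 to 2.32 CPM in purified controls. The sum therefore does not give the fibroblast content, and the part of these markers was not tested either. Adipocyte markers summed to at most 1.11 CPM in purified cells and 2.49 CPM in tumors. The count of sterol genes fell to 6 without control line 2 replicate 1 and to 9 without control line 2 replicate 2. In the authors' deposited table for purified cells, which treats the comparison with another tool and design, 16 sterol genes, 3 fatty acid genes and 4 regulators are lower in knockout at an adjusted p under 0.05, where 5.19% of all genes with an adjusted p are. In the authors' deposited table for tumors the counts are 13, 6 and 4, where 14.2% of all genes are lower.

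**Figure D2:**
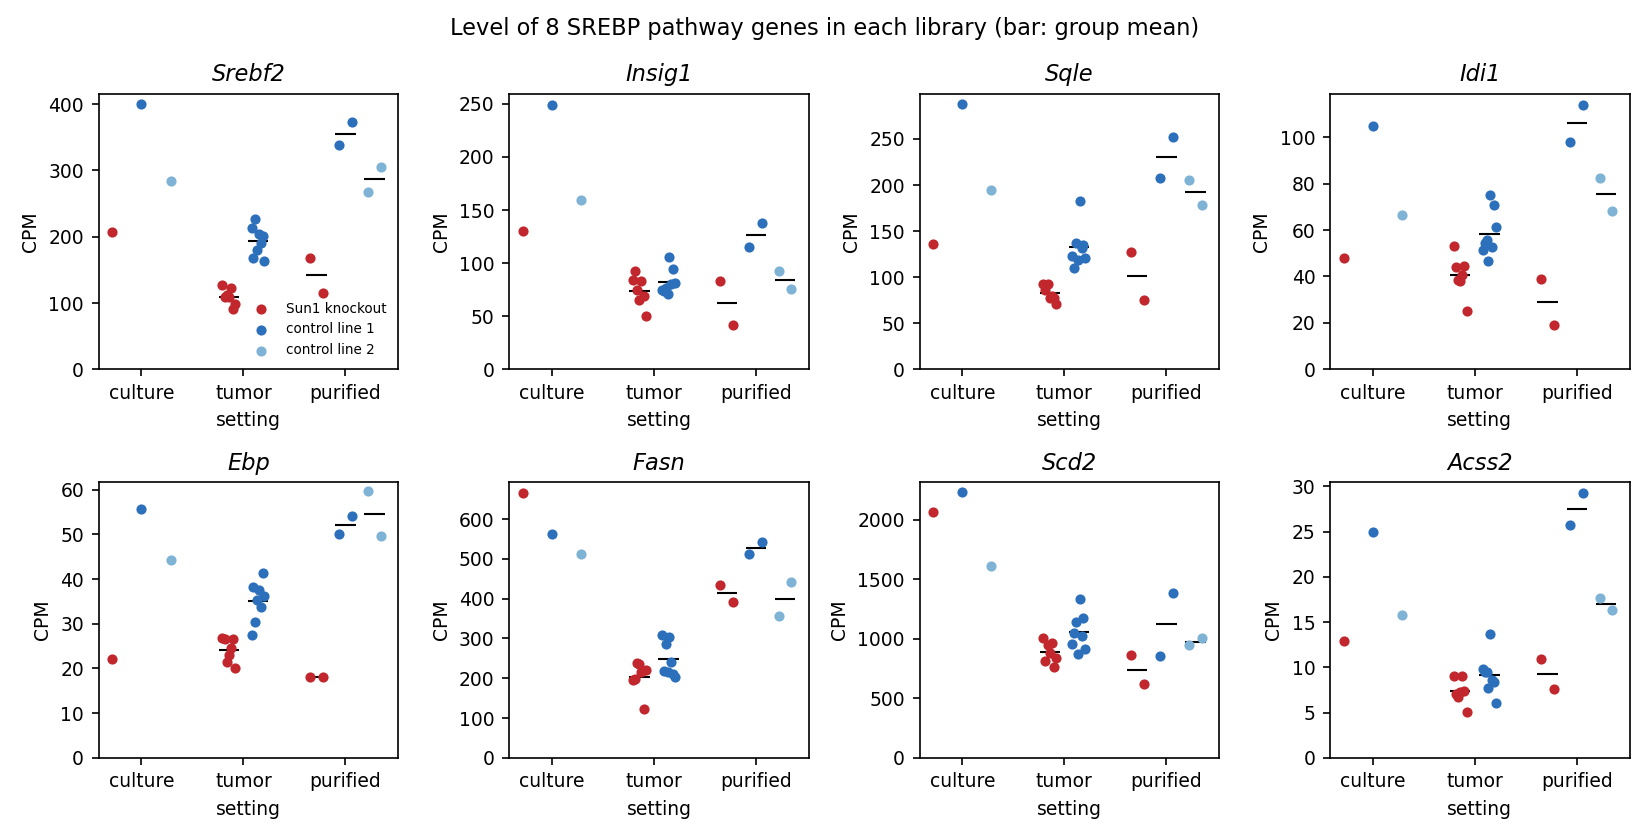
CPM (y axis, linear from 0) of 8 genes in each of the 24 libraries, by setting (x axis) and line (colour), with points for libraries and bars for means of groups with replicates. Srebf2, Sqle, Idi1, Ebp and Acss2 are low in both purified knockout libraries (for Ebp 18.1 and 18.0 CPM against at least 49.7 CPM), whereas Fasn in purified knockout cells lies within the range of the control lines.

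The knockout effect in tumors was set against that in purified cells, using control line 1 in both, by an interaction term. It was weaker in tumors for 10 of the 35 genes (edgeR adjusted p under 0.05), in a direction in which 4.82% of the 15033 genes tested were called. Of these, 9 are sterol genes, namely Hmgcs1, Pmvk, Mvd, Idi1, Fdft1, Cyp51, Hsd17b7, Ebp and Stard4, and the other is Acss2. Ebp differed by 1.00 ± 0.18 (edgeR adjusted p = 0.00119) and Idi1 by 1.34 ± 0.34 (edgeR adjusted p = 0.0212). Srebf2 (0.52 ± 0.18, edgeR adjusted p = 0.0725) and Sqle (0.51 ± 0.24, edgeR adjusted p = 0.184) did not pass, and neither did Scd1 (0.13 ± 0.17) or Fasn (0.07 ± 0.28). Whole tumors also hold host cells, with leukocyte markers at 238 to 674 CPM in tumors and at most 7.04 CPM in purified cells. The part of host cells in the weaker effect was not tested. The count of 10 also rests on few purified libraries. Without purified knockout replicate 2 only Ebp was still called (0.98), and 2 sterol genes were without purified control line 1 replicate 2.

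The branches were also compared within each library, as the mean log2 CPM of the 20 sterol genes minus that of the 9 fatty acid genes. This difference averaged -1.75 in knockout tumors (SD 0.17, n = 7, from -1.97 to -1.47) and -1.67 in control tumors (SD 0.16, n = 8, from -1.94 to -1.45), and the groups overlapped throughout. In purified cells it was -2.13 and -2.42 in the knockout line, -1.73 and -1.71 in control line 1 and -1.46 and -1.80 in control line 2, so the knockout libraries lay below all 4 controls. In culture it was -2.11 in the knockout library, -1.57 in control line 1 and -1.83 in control line 2. In tumors both branches were thus lower by a similar amount, and in purified cells the sterol branch was lower by more. These are descriptions of chosen genes and were not tested.

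**Figure D3:**
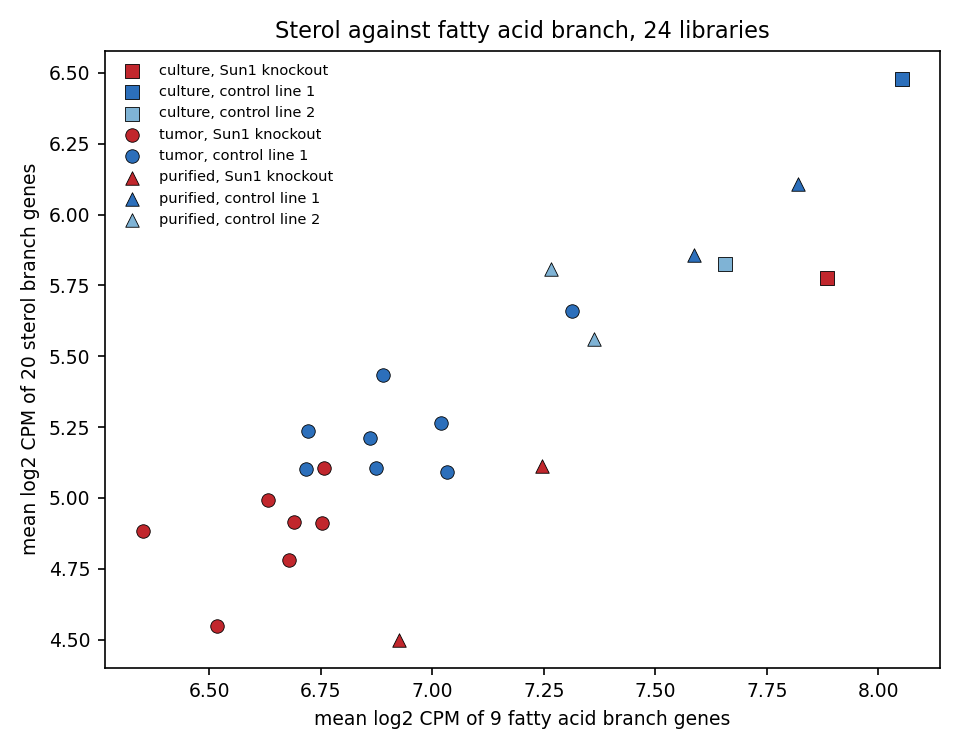
Mean log2 CPM of the 20 sterol genes (y axis) against that of the 9 fatty acid genes (x axis), 1 point per library, with shape for setting and colour for line. Both purified knockout libraries (sterol means 5.11 and 4.50) and the cultured knockout library lie below the band formed by the other libraries, and the knockout tumors lie to the lower left of most control tumors along it.

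In cultured cells there was 1 library per line, so differences have no replicate check. At least 1.5-fold below both control lines was 1 of the 35 genes, Ebp, where 3.5% of the 11683 genes with a mean count of at least 10 were. Ebp measured 22 CPM in knockout, 55.7 CPM in control line 1 and 44.2 CPM in control line 2, log2 differences of -1.35 and -1.01. Srebf2 measured 207, 401 and 284 CPM in the same order, differences of -0.97 and -0.47. Acat2 (-1.08 and -0.56), Sqle (-1.10 and -0.53) and Idi1 (-1.14 and -0.48) were also below both lines.

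Much of the cultured difference depended on the control line. Against control line 1, 14 of 20 sterol genes were at least 1.5-fold lower, with a median log2 difference of -0.73, where 8.55% of all genes were. Against control line 2 only Ebp was, with a median of -0.08, where 7.36% of all genes were. Control line 2 was itself at least 1.5-fold below control line 1 in 13 sterol genes, where 8.06% of all genes were, with Mvd at -1.63, Hsd17b7 at -1.15 and Hmgcs1 at -1.13. Hmgcs1 measured 76.6 CPM in knockout, 186 CPM in control line 1 and 85.5 CPM in control line 2. Mvd was higher in knockout than in control line 2 (45.8 against 28.9 CPM). Fatty acid genes had medians of -0.12 against line 1 and 0.32 against line 2. Fasn measured 666 CPM in knockout, above 563 and 513 CPM in the control lines. Skeletal muscle markers summed to 4.63 CPM in the cultured knockout library and to 0.66 and 0.93 CPM in the controls. The authors' deposited table for cultured cells calls 0 of the 35 genes, where 0.255% of all genes are lower in knockout.

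**Figure D4:**
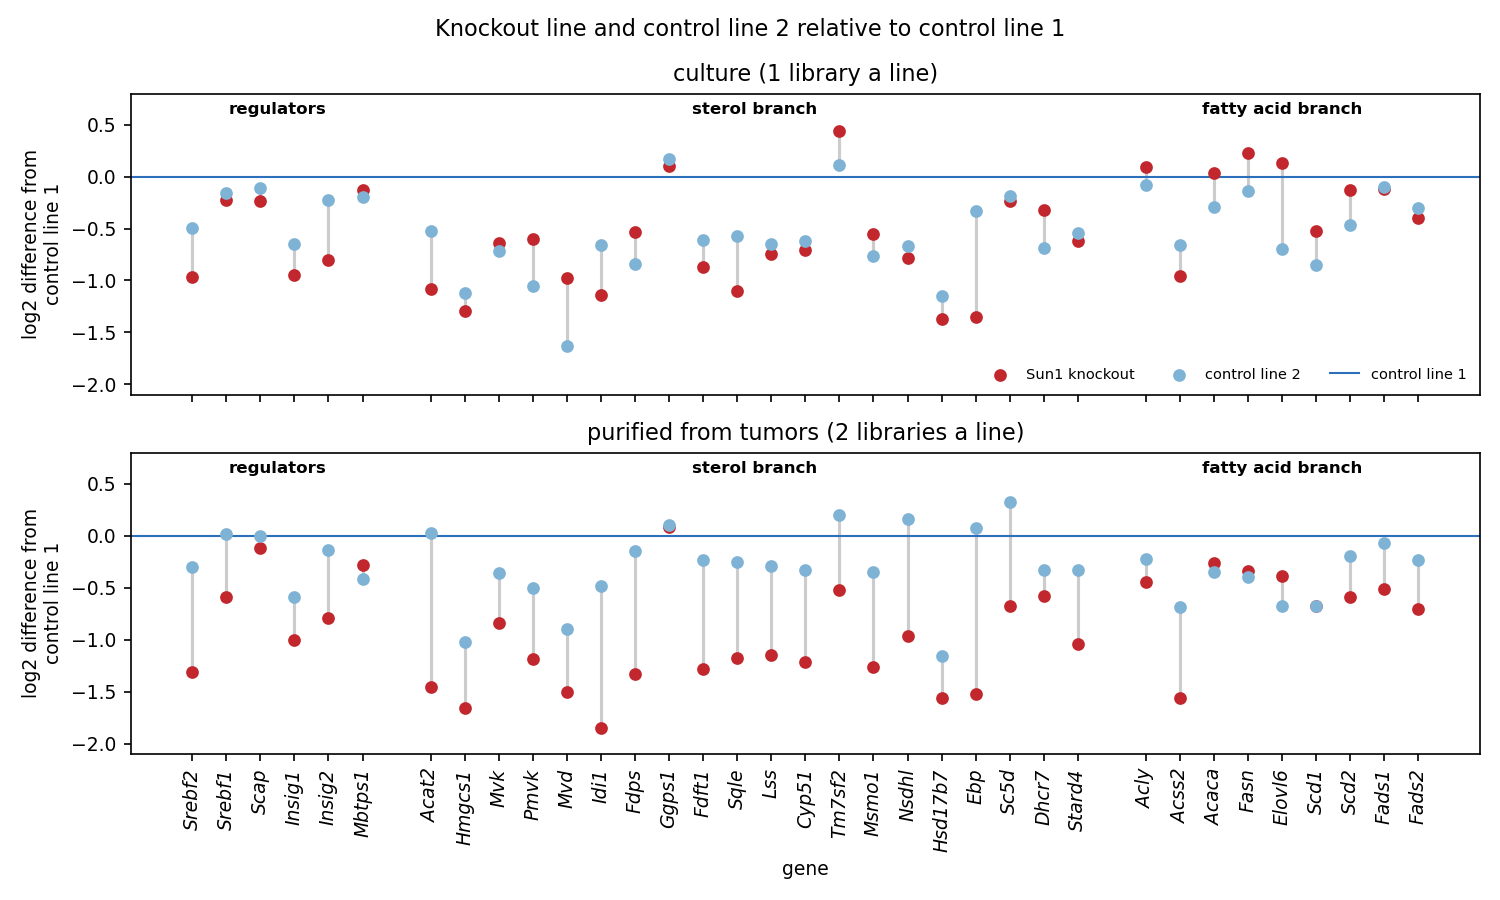
Log2 difference of the knockout line and of control line 2 from control line 1 (y axis, control line 1 at 0) for each gene (x axis) in culture and in purified cells. In culture the knockout line and control line 2 lie close together below 0 for many sterol genes (Hmgcs1 at -1.30 and -1.13). Idi1 was further apart there (-1.14 against -0.66). In purified cells the knockout line lies further down (Idi1 at -1.85 against -0.48).

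Purified cells were compared with cultured cells over the 9 libraries of cells, with line as a term. Only the purified cells were isolated with a kit, so growth in the mouse cannot be told apart from isolation here. In purified cells 10 of 20 sterol genes and 7 of 9 fatty acid genes were lower than in culture and 0 of either were higher (edgeR adjusted p under 0.05), where 21.4% of the 12651 genes tested were lower. The 4 fibroblast markers were each called higher in purified cells, by 2.23 to 5.87 on the log2 scale, and summed to 581 to 2217 CPM there against 91.5 to 218 CPM in culture. Their part in these differences was not tested. The median was -0.53 for the sterol branch, -0.45 for the fatty acid branch and 0.01 for all genes. The size of the sterol difference varied with the line. From culture to purified cells the mean log2 CPM of the 20 sterol genes went from 5.77 to 4.81 in the knockout line. It went from 6.48 to 5.98 in control line 1 and from 5.83 to 5.69 in control line 2. For the 9 fatty acid genes it went from 7.89 to 7.09, from 8.05 to 7.70 and from 7.66 to 7.31 in the same order. Phosphomevalonate kinase Pmvk measured 39.2, 58.9 and 28.3 CPM in cultured knockout, control line 1 and control line 2, and 11.2 and 9.34, 20.8 and 26.2, and 16 and 17 CPM in the purified libraries of these lines. It fell in each line (-1.35 ± 0.17, edgeR adjusted p = 8.04e-05). Mvd fell by 1.10, Scd2 by 1.07, Insig1 by 0.98, Lss by 0.92 and Elovl6 by 0.78. Among the regulators Mbtps1 rose by 0.41 and Insig2 by 0.26, where 22.1% of all genes were called higher, and Srebf2 (-0.23) and Srebf1 (0.02) did not pass. Hmgcs1 had a value of 0.30 and Ebp one of -0.01, and neither passed. Hmgcs1 measured 76.6, 186 and 85.5 CPM in cultured knockout, control line 1 and control line 2. The purified libraries of these lines measured 96.4 and 57.0, 218 and 271, and 132 and 107 CPM, higher than culture in both control lines. The calls fell to 5 sterol genes without the cultured knockout library or without the cultured control line 1 library.

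Whole tumors were set against purified cells of the same line. In control line 1, 28 of the 35 genes were lower in tumors and 1 (Ggps1) was higher, where 23.9% of the 15033 genes tested were lower and 29.6% higher. Of the sterol genes 16 were lower, with a median of -0.70. In the knockout line 10 genes were lower, where 25.7% of all genes were, and 4 were higher (Insig2, Ggps1, Msmo1 and Ebp), where 31.6% of all genes were. The sterol median there was 0.11, and the fatty acid median was -0.50 against -0.74 in control line 1. Whole tumors hold host cells, with leukocyte markers at least 422 CPM in knockout tumors and at most 2.42 CPM in purified knockout cells, and their part in these differences was not tested.

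Relations between a regulator and a target were examined over tumors of 1 genotype, 6 in all, with exact permutation tests (two-sided). Srebf1 and Fasn rose together over the 8 control tumors (Pearson r = 0.897, permutation p adjusted over the 6 relations = 0.0199; Spearman rho = 0.786, adjusted permutation p = 0.0960). Without the 2 tumors farthest from the median of Srebf1, r was 0.839. In the 7 knockout tumors r was 0.716 (adjusted permutation p = 0.234) and fell to 0.168 without the 2 farthest tumors, so it rested on these. Srebf2 and Sqle gave r = 0.547 in control and 0.626 in knockout tumors, and Srebf2 and Hmgcs1 gave 0.389 and 0.257, none of which passed. The tumors of a genotype fell into 2 runs of library numbers with 3 to 5 tumors each, too few for a value within a run. A relation of Scd1 with the adipocyte gene Adipoq was not run, since Adipoq was at or near 0 in all tumors.

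The library numbers also served to split the tumor comparison. Within the run holding 4 knockout and 3 control tumors, 4 sterol genes were lower (Acat2, Sqle, Lss and Ebp) with a median of -0.17. Within the run holding 3 and 5 tumors, 10 were lower with a median of -0.57. The runs differ in size and the share of all genes called within each is not given here, so these counts are not set against each other. Srebf2 was lower in both runs, by -0.82 and -0.84. Fatty acid medians were -0.32 in both. What the library numbers stand for is not given in the labels.

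Genes of neighbouring pathways are read against the shares given above, 19% of all genes lower and 18.1% higher in knockout tumors, and 10.1% lower and 10.5% higher in purified knockout cells. Of 12 genes of sterol transport and sensing, 4 fell in tumors and 0 rose, with the lysosomal cholesterol exporter Npc1 at -0.40, and in purified cells 0 fell, and the genes that rose included Erlin1 (0.43). Of 8 genes that use isoprenoids, such as prenyl transferases, 0 passed in tumors, and 1 of them, Pggt1b, rose in purified cells (0.34). Of 18 tested genes of other fatty acid and lipid synthesis, 4 fell and 0 rose in tumors (Acacb, Tecr, Mid1ip1 and Lpin1), and the same 4 fell in purified cells while Acsl5 and Dgat1 rose. Mid1ip1, which activates acetyl-CoA carboxylase, ranged from 43.2 to 50.8 CPM in knockout and from 66.7 to 85.8 CPM in control tumors without overlap (-0.70 ± 0.06, edgeR adjusted p = 3.54e-08). In purified cells Mid1ip1 fell by 1.21 and the phosphatidate phosphatase Lpin1 by 0.79.

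The LXR receptors answer to oxidised sterols and act opposite to SREBP-2 on cell cholesterol. Of 8 genes of LXR and its targets, 3 fell and 2 rose in tumors. Nr1h3, which encodes LXR-alpha, rose by 1.24 and the exporter Abcg1 by 0.77, while the exporter Abca1 changed by -0.59, Abca7 by -0.45 and Nr1h2 by -0.24. Of 7 tested in purified cells, 1 fell and 1 rose. Abcg1 fell by 1.39, at 3.53 and 5.42 CPM in knockout and at least 10.8 CPM in controls. The LXR target Mylip rose by 0.40 against the mean of both control lines, but its knockout values lay between those of the lines. Nr1h3 was under the filter with at most 0.263 CPM in purified cells. Abcg1 and Nr1h3 measured far more in tumors, with Nr1h3 at 7.06 to 12.2 CPM in knockout tumors. Of 10 tested genes of fatty acid oxidation and uptake, 1 fell and 2 rose in tumors (Acadm at -0.28, Cd36 at 0.49 and Fabp4 at 0.54), and of 8 tested in purified cells 4 fell and 1 rose (Acadm at -0.85, Cpt1a at 0.56).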

How the data were processed

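Tools named in the submitters' processing notes are STAR, RSEM, FastQC and DESeq2, with the build mm10. Their versions are not given in the sources used here. Per the file headers, the authors deposited for each library the expected count and TPM of each gene, and for each of 3 comparisons a log2 fold change and an adjusted p-value. Sun1 is positive in these 3 tables, so their direction was read as control over knockout. The members and lists were chosen with earlier results of these data known.

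All 24 libraries were mapped to groups from the labels, with 0 columns unmapped. Expected counts were rounded and fitted with edgeR 4.0.16 (R 4.3.3) using TMM scaling, filterByExpr (minimum count 10, minimum total 15), the quasi-likelihood F test and Benjamini-Hochberg adjustment over all genes tested, at 0.05. Standard errors (SE) were derived from each fitted difference and its F statistic. The purified fit held 3 groups, the tumor against purified fit 4 groups. Log2 CPM used a prior count of 2. Library pairs of 1 group differed by a chi-square per gene of at least 7.38, so none was counted as a copy. All tests were two-sided. The steps were tested on simulated data. DESeq2 1.42.0 was an alternative. Named genes were all 35 members, with values per library for Srebf2, Srebf1, Insig1, Sqle, Fasn, Scd1, Scd2 and the gene with the smallest p per role, and 2 genes per further list. Other genes given per library, and further named genes of the lists, were chosen after their values were seen. The result of a gene of sterol transport and sensing is not reported here.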

Additional observations from a re-analysis of the deposited data

Results flagged for a closer look

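By Dixon's test, chance flags about 1 in 20 sets of values where the sets are independent. The sets here are not independent, since their genes were measured in the same tumors. Of 70 sets of values (35 genes in the tumors of 2 genotypes) 10 held a library far from the others. Control tumor replicate 5 was the highest of the 8 control tumors in 6 of them, with Acat2 at 65.6 CPM (next 45.2), Mvd at 19.997 CPM (next 15.2), Sqle at 183 CPM (next 137), Lss at 59.4 CPM (next 41.4), Elovl6 at 52.5 CPM (next 32.4) and Fads2 at 66.4 CPM (next 49.97). Without this tumor the 4 of these genes called lower in knockout tumors (Acat2, Sqle, Lss and Fads2) were still called, and Elovl6 became called as higher in knockout tumors (0.28). Knockout tumor replicate 6 was the lowest of the 7 knockout tumors in the other 4, with Mbtps1 at 108 CPM (next 128), Acaca at 53.4 CPM (next 68.1), Fasn at 122 CPM (next 196) and Fads2 at 19.7 CPM (next 29.7).

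The knockout effect differed between tumors and purified cells of the same lines for 10 genes by the interaction term (edgeR adjusted p under 0.05). Each log2 difference was above 0, which means a weaker fall in whole tumors. Such tumors also hold host cells, whose part was not tested. The differences were 1.34 for Idi1, 1.26 for Acss2, 1.24 for Mvd, 1.20 for Hmgcs1, 1.07 for Hsd17b7, 1.00 for Ebp, 0.99 for Pmvk, 0.93 for Cyp51, 0.87 for Fdft1 and 0.72 for Stard4.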

How the results depend on the processing

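The share of all genes called is not given for the alternative fits below, so a change in count is not read as particular to these genes. With the mean of Ptprc and Pecam1 as a covariate, 1 regulator, 1 sterol gene and 0 fatty acid genes were called lower in knockout tumors. Both covariate genes separated the genotypes wholly, so this loss of calls does not measure the part of host cells. Within the first run of library numbers the sterol count was 4 and the sterol median -0.17, and within the second run 2 regulators and 2 fatty acid genes were called. In purified cells, control line 2 alone gave 7 sterol and 2 fatty acid genes, and both control lines as 1 arm gave 1 fatty acid gene. Between the purified control lines, where 1 sterol gene was called, no low count filter gave 5, DESeq2 3 and the replicate block 3. Without that filter 2 sterol genes were lower in knockout tumors than in purified knockout cells, and 5 differed in the interaction. In culture, edgeR with both control lines as 1 arm called 0 of the 35 genes, with 6 at an unadjusted p under 0.05, and 1 residual degree of freedom remained.

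Leaving out each library in turn, sterol counts ranged from 12 to 14 in tumors, 6 to 17 in purified cells, 8 to 17 and 3 to 17 against control line 1 and control line 2 alone, 0 to 4 between control lines, 5 to 11 for purified against cultured cells, 8 to 16 and 0 to 3 for tumors against purified cells of control line 1 and of the knockout line, and 1 to 13 for the interaction. Fatty acid counts ranged from 1 to 6 in purified cells, 1 to 3 between control lines and 4 to 7 for purified against cultured cells, and regulator counts from 1 to 3 in purified cells. Where an arm kept 1 library, that library is assumed to vary like the others. No called gene changed sign under any alternative run. Of 529 single values in tumors 58 lost their call, 21 of them with the covariate, of 231 in purified cells 39 did, of 260 for purified against cultured cells 37 did, and of 70 for the interaction 25 did.

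The shared replicate numbers did not pair the samples, with correlations of deviations from -0.13 to 0.22 over the 7 tumor pairs and from -0.05 to 0.05 in purified cells. With the replicate block 11 sterol, 7 fatty acid and 5 regulator genes were lower in tumors, and 16, 4 and 3 in purified cells. Precision in purified cells and culture is limited by the number of libraries.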
